A study of Mus musculus with 35 samples.

Results

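The clustered histone genes are the genes of the linker histone H1 and the core histones H2A, H2B, H3 and H4 that lie in the Hist1, Hist2, Hist3 and Hist4 clusters. Protein-coding genes whose symbol in GENCODE M21 started with Hist1h, Hist2h, Hist3h or Hist4h were taken, and 67 of the 52636 genes in the count table met this rule. Of these, 54 lie on chromosome 13 (Hist1), 10 on chromosome 3 (Hist2), 2 on chromosome 11 (Hist3) and 1 on chromosome 6 (Hist4). They were followed in RNA sequencing libraries of CD8 T cells sorted by flow cytometry from C57BL/6 mice. All the mice carried Lcre+/-, a Cre transgene whose promoter the labels do not give. The Dot1l genotype, as the labels spell it, was Lcre+/-;Dot1Lfl/fl (KO), Lcre+/-;Dot1Lfl/wt (Het) or Lcre+/-;Dot1Lwt/wt (WT), and Dot1l encodes the methyltransferase of lysine 79 of histone H3. For each genotype there were memory cells of the spleen (CD44+ CD62L+), naive cells of the spleen (CD44- CD62L+) and CD8 single positive cells of the thymus (CD8 SP). The 35 libraries made 9 groups of 4, except WT thymus with 3. The labels give neither the ages of the mice nor whether each replicate is its own animal, and p-values therefore reflect only the scatter of these libraries, which may be technical.

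Most of these genes are replication-dependent: their mRNA is made in S phase, when new DNA has to be packed into nucleosomes, and is degraded when replication stops. Their mRNAs usually end not in a poly(A) tail but just after a short conserved stem-loop, which the stem-loop binding protein Slbp holds through processing, export and translation. Npat, a target of cyclin E and Cdk2, activates their transcription at the histone loci. In the CD8 lineage, thymic precursors and activated cells divide, while naive cells rest. The libraries were made with a kit for mRNA, so transcripts without a poly(A) tail are under-represented and a value here is the level that such a library captures.

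The stem-loop itself is shown for 7 members that recur in the results, because it is the feature that sets these mRNAs apart. A search of the annotated transcripts for the conserved 16-base element matched 46 of the 67 members, namely 4 H1, 11 H2A, 10 H2B, 9 H3 and 12 H4 genes, and 20 of 55383 other genes. Capitals mark the element, and the sequences are written 5′ to 3′ along the transcript with GRCm38 coordinates of the element.
Hist1h1c (chr13:23739512-23739527, plus strand): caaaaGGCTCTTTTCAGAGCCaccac
Hist2h2ac (chr3:96220418-96220433, minus strand): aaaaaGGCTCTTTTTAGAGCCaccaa
Hist1h2bf (chr13:23573765-23573780, minus strand): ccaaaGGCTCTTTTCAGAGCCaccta
Hist3h2ba (chr11:58949349-58949364, plus strand): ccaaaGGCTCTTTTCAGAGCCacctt
Hist1h3d (chr13:23576244-23576259, plus strand): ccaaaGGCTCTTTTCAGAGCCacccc
Hist1h4a (chr13:23760800-23760815, minus strand): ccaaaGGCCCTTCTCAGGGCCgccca
Hist1h4d (chr13:23581950-23581965, plus strand): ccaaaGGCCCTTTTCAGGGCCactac
The form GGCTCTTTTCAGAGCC was found in 26 members of the H1, H2A, H2B and H3 classes. The H4 genes had another stem, most often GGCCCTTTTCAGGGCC, found in 7 of them. Among the members whose annotated transcripts held no match were Hist1h1a, Hist1h2ak, Hist1h2bn, Hist1h2bq, Hist2h2be, Hist1h3h and Hist1h3i, which recur below. Whether such a transcript is annotated too short to reach a stem-loop was not tested, so no match does not show that the gene lacks one.

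Promoters are shown for 3 members that were the highest in their class or were higher in KO cells. RefSeq windows of GRCm38.p6, running from 250 bases before to 50 bases after each start, were matched by symbol for 61 of the 67 members. Both strands were searched for the TATA motif TATAAA, the CCAAT motif, the octamer spelled ATTTGCAT, the letters GGTCCG found within the H4 subtype element and the H1 element spelled AAACACA. Capitals mark the matches on either strand.
Hist3h2ba promoter (chr11:58948661-58948960, plus strand): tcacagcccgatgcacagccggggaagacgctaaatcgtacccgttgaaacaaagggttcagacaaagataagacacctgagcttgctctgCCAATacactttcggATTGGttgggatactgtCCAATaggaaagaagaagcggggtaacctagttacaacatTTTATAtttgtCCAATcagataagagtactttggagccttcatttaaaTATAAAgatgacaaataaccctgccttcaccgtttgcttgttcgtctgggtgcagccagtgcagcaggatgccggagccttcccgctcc
Hist1h3d promoter (chr13:23575513-23575812, plus strand): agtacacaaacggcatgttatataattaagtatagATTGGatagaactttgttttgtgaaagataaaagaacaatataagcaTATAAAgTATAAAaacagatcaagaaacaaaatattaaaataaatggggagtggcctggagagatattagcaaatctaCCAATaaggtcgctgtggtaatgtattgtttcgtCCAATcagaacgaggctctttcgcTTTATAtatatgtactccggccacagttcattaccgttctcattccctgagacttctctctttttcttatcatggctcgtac
Hist1h4d promoter (chr13:23581318-23581617, plus strand): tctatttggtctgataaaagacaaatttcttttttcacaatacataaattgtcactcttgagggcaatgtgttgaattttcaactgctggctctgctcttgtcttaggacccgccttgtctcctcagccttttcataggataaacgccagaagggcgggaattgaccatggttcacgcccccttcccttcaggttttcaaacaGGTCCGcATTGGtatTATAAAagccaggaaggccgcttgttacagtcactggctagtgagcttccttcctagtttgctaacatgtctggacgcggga
The TATAAA motif was present in 34 of 61 members (55.7%), against 13.6% of all 32851 promoters of the table. The CCAAT motif was present in 52 of 61 (85.3%), against 37.4% of all promoters. Every H1, H2A, H2B and H3 promoter matched held CCAAT, and 3 of the 12 H4 promoters did. GGTCCG was found in 11 of 12 H4 promoters, all but that of Hist1h4a, against 8.25% of all promoters. The octamer was found in 7 of 18 H2A and 6 of 16 H2B promoters, against 1.74% of all. AAACACA was found in 4 of 5 H1 promoters, against 7.18% of all. A match describes letters in this window and is not a measured binding site.

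Of the 67 members, 44 passed the filter on low counts and were tested, and 9 had no count in any library (Hist1h1t, Hist1h2aa, Hist1h2ah, Hist1h2an, Hist2h2aa1, Hist2h2aa2, Hist2h2bb, Hist2h3b and Hist2h3c1). The 2398943 counts of the members were shared unequally between the classes. The 18 H2B genes took 42.4% of them and the 13 H4 genes 42.2%, while the 12 H3 genes took 10.3%, the 6 H1 genes 4.41% and the 18 H2A genes 0.684%. The numbers tested were 15 H2B, 11 H4, 9 H3, 5 H1 and 4 H2A genes. As background, a nucleosome holds H2A and H2B in equal number. Every H2A gene had an annotated gene on the opposite strand, and these 20 opposite genes had 27 counts in all. Of the 21 members with an opposite gene 18 were H2A genes, so this set largely repeats the H2A class. These 21 had a median total of 10 counts, against 23160 for the 46 without one. The 3 outside H2A had totals from 0 to 44464 counts. The H2A genes with most counts were Hist2h2ac with 13552 and Hist1h2ak with 2015. The strand setting of the counting is not given in the sources used here, and its part in these low counts was not tested. Members also share sequence: a median of 40.3% of their 65-base windows, the length of a read, occurred exactly in another gene (0.870% for H1, 70.2% for H2A, 38.9% for H2B, 54.4% for H3 and 29.1% for H4). The median was 66.1% in the 21 members with an opposite gene and 37.9% in the 46 without one. The values of single members that share much, such as Hist1h3h (93.7%), Hist1h3i (81.8%) and Hist1h2bf (60.2%), are therefore uncertain as values of that gene.

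Total counts were 4809509 to 16879636 per library, with a median of 10406516. The whole-gene Dot1l level was not lower in KO cells: it was 77.3 ± 1.7 CPM (counts scaled to a common library size) in KO thymus, against 69.2 ± 4.4 in Het and 67.05 ± 5.2 in WT thymus (SD, n = 4, 4 and 3). The log2 fold changes of KO over WT were 0.01 in memory, 0.17 in naive and 0.20 in thymus cells, none called (edgeR quasi-likelihood test, adjusted p = 0.961, 0.163 and 0.0891). The labels do not give the deleted part, so a count over the whole gene does not check the deletion. CD8 T cell genes were abundant in all libraries, with a summed level of 1193 to 1666 CPM over 10 genes. Het thymus replicate 4 stood apart from the other Het thymus libraries: it was the highest of its group in 41 of 44 tested members. Its summed histone level was 3.11 times the mean of the other Het thymus libraries, with 3.61 times for H4, 3.06 for H2B, 2.50 for H3, 1.56 for H1 and 1.03 for H2A. Its summed S phase and mitosis level was 1.06 times theirs. The non-coding RNA Rn7sk, which has no poly(A) tail, was at 149.0 CPM in it and at 53.6 to 81.2 CPM in the others. The non-coding RNAs Rpph1 and Rmrp were at 29.0 and 16.7 CPM in Het thymus replicate 4, and at most 23.5 and 7.49 CPM in the others. All of these RNAs were also highest in replicate 4 among the KO thymus libraries, where its summed histone level was the highest too. Rn7sk was at 117 and 120 CPM in WT naive replicates 2 and 3. Their summed histone levels were the lowest (1572 CPM) and the highest (2185 CPM) of that group. The cause of the high histone level in Het thymus replicate 4 was not tested. In KO thymus, replicate 3 was the lowest in 43 of 44 members, and in WT thymus replicate 1 was the lowest in 40.

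The clustered histone genes were high in the thymus and low in the spleen. The sum over the members was 2618, 2997, 3141 and 3599 CPM in KO memory, 1714, 1746, 2149 and 2771 CPM in Het memory, and 2045, 2031, 2796 and 2764 CPM in WT memory libraries. In naive cells the sum was 2069.7, 2240.3, 2218 and 2307 CPM in KO libraries, with 2442, 1995, 1954 and 1549 CPM in Het and 2169, 1572, 2185 and 2168 CPM in WT libraries. The thymus sums were 16710, 20401, 9978 and 21963 CPM in KO, 8969, 9411, 10685 and 30101 CPM in Het, and 7813, 10135 and 12139 CPM in WT libraries. No spleen library reached the lowest thymus library, and the KO and WT thymus libraries overlapped. The thymus mean was 7.82 times the naive mean in KO, 7.45 times in Het and 4.96 times in WT cells. Without Het thymus replicate 4 the Het ratio was 4.88. Against WT, the KO mean was 1.28 times in memory, 1.09 times in naive and 1.72 times in thymus cells. In these bulk libraries, fewer cells that make histone mRNA and less histone mRNA per cell cannot be told apart.

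**Figure D1:**
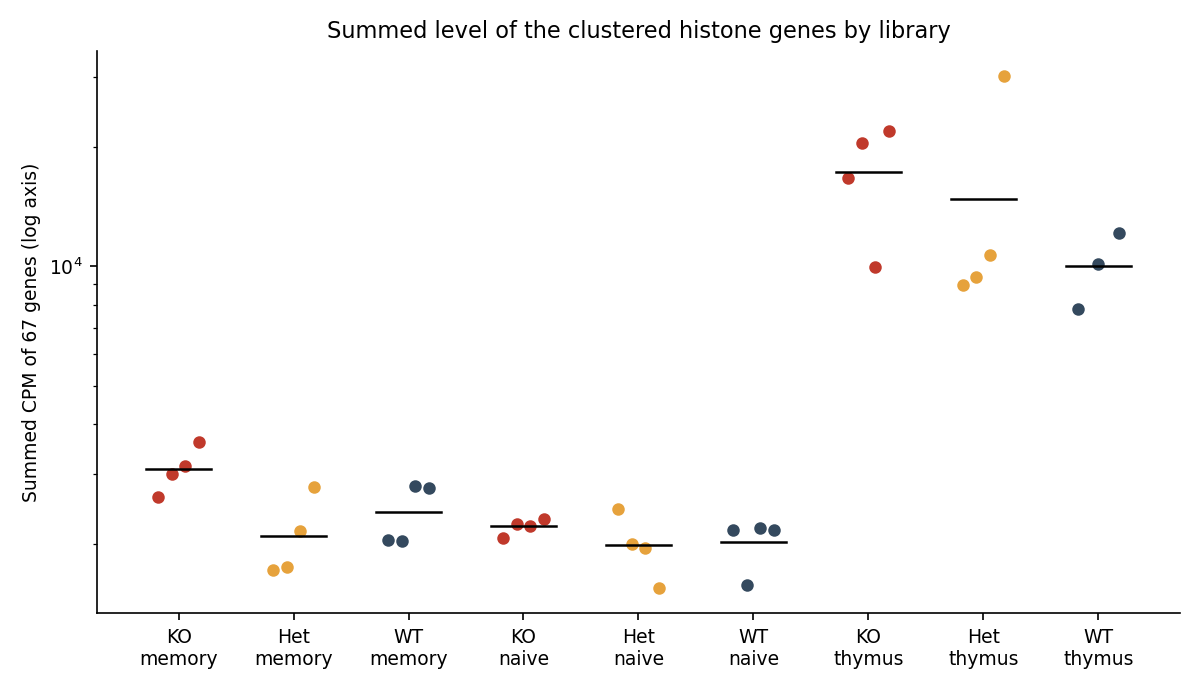
Summed CPM of the 67 clustered histone genes in each library (log axis), with 1 point per library and a line at each group mean. The thymus libraries sit between 7813 and 30101 CPM, all above the spleen libraries, which sit between 1549 and 3599 CPM.

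Which histone genes made up this level differed between naive and thymus cells. The H4 genes held 61.3 ± 2.1% of the histone CPM in KO, 64.6 ± 2.3% in Het and 64.7 ± 2.3% in WT naive libraries, against 34.3 ± 1.5%, 36.1 ± 3.6% and 38.1 ± 1.5% in KO, Het and WT thymus libraries (SD, n = 4, 4 and 3 in thymus). The H2B genes held 25.2 ± 2.0%, 21.7 ± 1.7% and 21.5 ± 2.3% in KO, Het and WT naive libraries, against 48.8 ± 1.3%, 48.5 ± 2.2% and 45.5 ± 1.8% in the thymus. In each genotype the naive and thymus libraries did not overlap in these shares. Per kilobase of exon, the highest levels in WT naive cells were those of Hist1h4d (457 ± 32 CPM per kilobase), Hist1h4h (414 ± 95) and Hist1h4c (361 ± 86), and these neighbours overlapped within their SD (n = 4). In WT thymus the highest were Hist1h2bm (1474 ± 309), Hist1h2bb (1435 ± 378) and Hist1h4d (1236 ± 207), which also overlapped within their SD (n = 3).

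In naive against thymus cells, almost every tested member was lower. In KO cells 43 of 44 were lower and 1 higher, against 44.1% of all 10296 tested genes called in either direction, 21.7% lower and 22.4% higher, and the median log2 fold change of the members was -3.46, against 0.05 over all genes (edgeR quasi-likelihood test, adjusted p under 0.05). In Het cells 43 of 44 were lower, against 39.5% of all genes called, 19.8% higher and 19.7% lower, with a median of -3.63 for the members and 0.02 for all genes. In WT cells 42 of 44 were lower, against 32.2% of all genes called, 15.3% higher and 16.9% lower, with a median of -3.19 for the members and 0.03 for all genes. The member higher in naive KO cells was Hist2h2be (0.58 ± 0.23, SE, adjusted p = 0.0421, edgeR), a call that was lost on leaving out any of KO thymus replicates 2, 3 and 4 or KO naive replicates 1, 2 and 4. The members not called in WT cells were Hist2h2be, at -0.11 ± 0.24 (SE, adjusted p = 0.789, edgeR), and Hist1h4c, at -0.80 ± 0.41 (adjusted p = 0.142). The class medians in WT cells were -3.03 for H1, -3.02 for H2A, -4.10 for H2B, -3.83 for H3 and -1.50 for H4. Hist1h1a, Hist1h2ab, Hist1h2ae and Hist1h2br, all counted as lower, had at most 8, 5, 3 and 7 counts in any naive library. They passed the filter on low counts through the thymus libraries, so their lower naive level was largely set by that filter. The H2A median includes Hist1h2ab and Hist1h2ae.

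**Figure D2:**
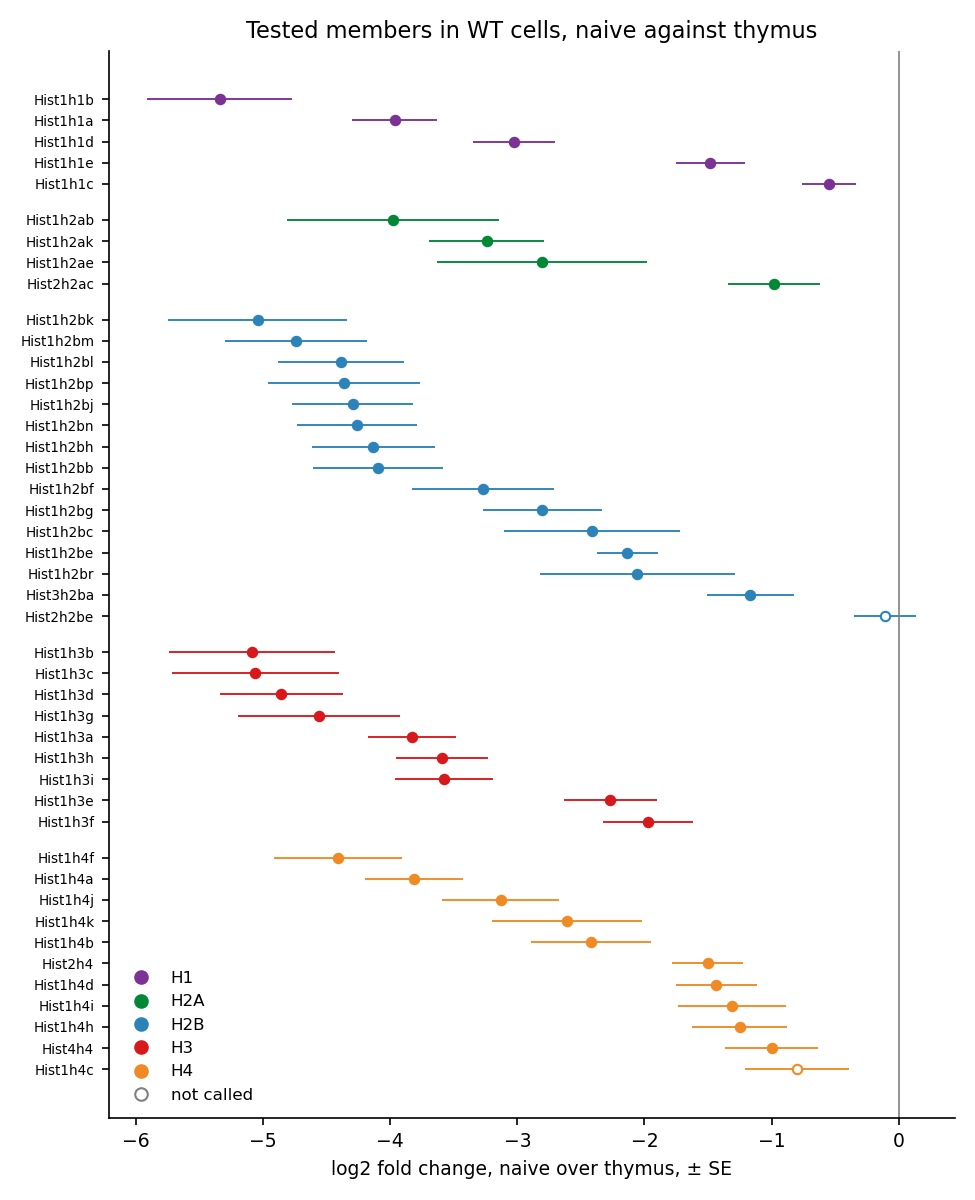
Log2 fold change of naive over thymus cells in WT libraries for the 44 tested members, by histone class, with bars of ± 1 SE and open points where the call was not made. The H4 genes spread from -4.41 to -0.80, and Hist2h2be lies at -0.11.

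Hist1h1a, an H1 subtype that in mouse is found in few tissues, the thymus among them, had the lowest adjusted p in all 3 genotypes. It was at 0.217, 0.383, 0.379 and 0.523 CPM in WT naive libraries, against 5.59, 7.09 and 6.30 CPM in WT thymus libraries, and every naive library lay below every thymus library. The WT naive values are 1, 3, 4 and 5 counts, and no naive library of any genotype had more than 8. Hist1h1a passed the filter on low counts through the thymus libraries, so its rank here was partly set by that filter and its fold size is imprecise. Its log2 fold change was -4.29 ± 0.28 in KO, -4.28 ± 0.32 in Het and -3.97 ± 0.34 in WT cells (edgeR, adjusted p = 1.76e-16, 1.83e-14 and 1.16e-12). The H3 genes Hist1h3a, Hist1h3d and Hist1h3h, whose products are core histones of the nucleosome, followed in WT cells with -3.83 ± 0.35, -4.86 ± 0.48 and -3.59 ± 0.36 (adjusted p = 1.24e-09, 6.19e-09 and 3.81e-09). Hist1h3b was at 1.73, 3.83, 14.96 and 8.27 CPM in WT naive libraries, against 209, 295 and 313 CPM in WT thymus libraries. Its range within WT naive cells is wide beside its mean, and the groups did not overlap.

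The H4 gene with the highest mean CPM, Hist1h4d, had a smaller fold change. It was at 544, 467, 525 and 546 CPM in WT naive libraries, against 1137, 1511 and 1570 CPM in WT thymus libraries, a log2 fold change of -1.43 ± 0.32 (edgeR, adjusted p = 0.000788). Hist1h4c was at 358, 203, 278 and 344 CPM in WT naive libraries, against 391, 499 and 655 CPM in WT thymus libraries. Its groups did not overlap, though the test did not call it. The tested H2B genes with the highest mean CPM over all libraries were Hist1h2be, at 161, 126, 159 and 175 CPM in WT naive against 540.1, 663 and 839 CPM in WT thymus libraries, and Hist1h2bf, at 38.3, 34.1, 70.2 and 53.1 CPM against 462, 176 and 799 CPM. The place of Hist1h2bf rests on Het thymus replicate 4: its mean was 373 CPM with that library and 286 CPM without it, where Hist1h2bm (325 CPM) and Hist1h2bb (315 CPM) were above it. Hist1h2be runs over Hist1h1e on the same strand in the annotation, so reads from the overlap do not tell them apart. Of the linker histones, Hist1h1c was at 107, 72.7, 88.5 and 87.0 CPM in WT naive libraries, against 119, 121 and 148 CPM in WT thymus libraries, and Hist1h1d at 31.0, 17.6, 25.5 and 29.2 CPM against 165, 219.6 and 241 CPM. Hist1h1c had the smallest change of the called H1 genes (-0.55 ± 0.21, adjusted p = 0.0451, edgeR). Hist1h3e was at 55.9, 29.1, 46.6 and 41.9 CPM in WT naive against 152, 208 and 260.1 CPM in WT thymus libraries. The log2 fold changes of the named H2A genes were -0.98 ± 0.36 (Hist2h2ac, 34.9, 23.9, 20.5 and 25.2 CPM in WT naive against 39.5, 54.3 and 57.0 CPM in WT thymus libraries) and -3.24 ± 0.45 (Hist1h2ak, 1.30, 1.28, 1.33 and 0.837 CPM against 7.59, 11.9 and 13.5 CPM).

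The members were also split by where the annotated transcript ends. The 18 tested members with a transcript that runs on for more than 100 bases past the stem-loop had a median log2 fold change of naive over thymus of -2.05 in WT cells. The 15 that end within 100 bases of the stem-loop had a median of -4.29, and the 11 with no stem-loop match -3.58. Within classes, the medians past and near the stem-loop were -2.27 (3 genes) and -4.81 (4 genes) for H3, -2.47 (4 genes) and -4.33 (6 genes) for H2B, and -1.43 (7 genes) and -2.42 (3 genes) for H4. H2A ran the other way, at -2.80 (1 gene) and -2.48 (2 genes), and no tested H1 gene ended near a stem-loop. The H2A values rest on Hist1h2ae, and on Hist1h2ab (-3.98) with Hist2h2ac (-0.98). Hist1h2ae and Hist1h2ab had at most 3 and 5 counts in any naive library, so the H2A order is imprecise. These medians describe genes that share a class, a cluster and reads, and no test was made of them. A transcript annotated too short to reach its stem-loop would fall among those with no match.

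Genes that make and process histone mRNA, or divide the cell, were compared in the same fit. Of 26 tested S phase and mitosis genes, 26 were lower in naive than in thymus cells in KO, 25 in Het and 26 in WT cells. In WT cells Mcm2, a subunit of the replicative helicase, had a log2 fold change of -1.66 ± 0.08 (edgeR, adjusted p = 5.76e-21). Slbp, the stem-loop binding protein, was lower in each genotype (-1.29 in KO, -0.91 in Het and -0.84 ± 0.12 in WT cells, adjusted p = 1.25e-07 in WT). Of 20 tested genes of the histone mRNA machinery, 10 were lower in KO, 8 in Het and 6 in WT cells, and none was higher. Npat was lower in Het cells (-0.54) and not called in KO (-0.31) or WT cells (0.40). Of 24 histone chaperones, which carry new histones to DNA, 15, 14 and 14 were lower in KO, Het and WT cells and 1, 0 and 1 higher. In WT cells the chaperone Asf1b was at -2.22 ± 0.19 (adjusted p = 9.42e-13). Of 8 tested replacement histones, whose mRNAs have poly(A) tails and are made outside S phase too, 4, 5 and 4 were lower in KO, Het and WT cells and 0, 1 and 1 higher. Of the small RNAs without a poly(A) tail, Rn7sk was not called in any genotype (0.49 in KO, -0.46 in Het and 0.25 in WT cells), and Rmrp was higher in naive KO (1.18) and WT cells (1.26). Genes of other cell types also differed between these subsets. All 4 tested immature thymocyte genes were lower in naive cells in each genotype. Of 9 tested B cell genes 4, 2 and 4 were higher in naive KO, Het and WT cells, and of 5 tested erythroid genes 4, 4 and 0, with none lower. Their part in the histone levels was not tested.

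In the thymus the histone genes had higher means in KO libraries than in WT libraries, and few passed the test. WT thymus had no replicate 4, which was the highest library of its group in 31 of 44 members in KO and in 41 in Het thymus. The part of this imbalance in the difference was not tested. The log2 fold change was positive for 43 of 44 members, with a median of 0.81, against 0.02 over all genes tested. Of the 44, 6 were called higher and 1 lower (edgeR quasi-likelihood test, adjusted p under 0.05). This is 15.9% of the members, against 18.6% of all genes called in either direction, 11.9% higher and 6.77% lower, so the share called was near that of all genes. The medians were 0.84 for H1, 0.69 for H2A, 0.83 for H2B, 0.85 for H3 and 0.67 for H4, and none of the 11 H4 genes was called (3 at an unadjusted p under 0.05).

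Hist1h1a (ENSMUSG00000049539, chr13:23763666-23764406, plus strand) had the lowest adjusted p. It was at 11.4, 12.2, 8.17 and 15.3 CPM in KO, 8.13, 5.55, 6.41 and 6.48 CPM in Het, and 5.59, 7.09 and 6.30 CPM in WT thymus libraries. Every KO library lay above every Het and WT library. The log2 fold change of KO over WT was 0.88 ± 0.22 (edgeR, adjusted p = 0.00324), and it was called in all 16 alternatives run. Hist1h1a shares no 65-base window with another gene, so no full-length read from it matches another annotated gene exactly.

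Hist3h2ba (ENSMUSG00000056895, chr11:58948920-58949533, plus strand), the H2B gene whose promoter and stem-loop are printed above, was at 54.3, 86.6, 40.4 and 96.7 CPM in KO, 35.9, 31.0, 28.3 and 88.1 CPM in Het, and 24.5, 28.9 and 41.3 CPM in WT thymus libraries. Only KO replicate 3 lay within the range of the WT libraries. The log2 fold change over WT was 1.13 ± 0.32 (edgeR, adjusted p = 0.0114), a call lost with only the libraries compared, with the replicate block and without WT replicate 1 or 2 (adjusted p up to 0.383). Hist1h3d (ENSMUSG00000099583, chr13:23575763-23577011, plus strand), an H3 gene with 22.8% of its windows shared, was at 241, 302, 152 and 296 CPM in KO, 100.1, 96.5, 111 and 228 CPM in Het, and 83.4, 102 and 117 CPM in WT thymus libraries. KO and WT did not overlap, while Het replicate 4 fell within the KO range. Over WT its log2 fold change was 1.29 ± 0.37 (edgeR, adjusted p = 0.0131), a call lost with the replicate block and without WT replicate 1 (adjusted p up to 0.229).

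The linker histone gene Hist1h1e (ENSMUSG00000051627, chr13:23620629-23622558, minus strand) was at 76.1, 109, 45.2 and 88.3 CPM in KO, 47.7, 43.4, 40.9 and 66.3 CPM in Het, and 35.02, 48.1 and 48.98 CPM in WT thymus libraries, a log2 fold change over WT of 0.84 ± 0.25 (edgeR, adjusted p = 0.0186). KO replicate 3 lay within the WT range, and the call was lost with only the libraries compared, with the replicate block and without WT replicate 1 or KO replicate 2 (adjusted p up to 0.394). The H3 genes Hist1h3h (ENSMUSG00000101355, chr13:21717659-21718069, plus strand) and Hist1h3a (ENSMUSG00000069265, chr13:23761853-23762386, minus strand) were at 0.86 ± 0.27 and 0.85 ± 0.29 (adjusted p = 0.0241 and 0.0396). Hist1h3h was at 37.0, 50.6, 20.2 and 51.7 CPM in KO, 22.7, 20.5, 23.02 and 32.6 CPM in Het, and 16.9, 19.5 and 29.0 CPM in WT thymus libraries. Hist1h3a was at 174, 206, 96.4 and 243 CPM in KO, 81.1, 92.4, 107 and 122 CPM in Het, and 78.4, 97.4 and 123 CPM in WT thymus libraries. In both, KO replicate 3 was within the WT range and the other KO libraries above it. Hist1h3h was called in 9 of 16 alternatives and Hist1h3a in 6 of 16 (edgeR or DESeq2, adjusted p up to 0.601 and 0.555). Both calls were lost with no filter, with only the libraries compared, with the replicate block and without WT replicate 1, WT replicate 2, KO replicate 2 or KO replicate 4, and that of Hist1h3a also with mean log centring, with DESeq2 and without KO replicate 1.

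One member moved the other way. Hist2h2be (ENSMUSG00000068854, chr3:96221119-96223738, plus strand) encodes an H2B variant described in mouse olfactory neurons, and its annotated transcript holds no stem-loop match. Hist1h1a and Hist1h3h, called higher here, also had no match, and the 11 tested members without one had a median log2 fold change of 0.82. Hist2h2be was at 19.3, 14.2, 16.6 and 17.1 CPM in KO, 26.5, 23.5, 18.5 and 36.9 CPM in Het, and 38.7, 18.2 and 31.8 CPM in WT thymus libraries. WT replicate 2 lay within the KO range, and the log2 fold change of KO over WT was -0.80 ± 0.24 (edgeR, adjusted p = 0.0202). It was not called without WT replicate 1 (-0.57), WT replicate 3 (-0.73) or KO replicate 2 (-0.73).

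The abundant members were positive and not called. Hist1h4d was at 2105, 2641, 1256 and 2689 CPM in KO, 1143, 1324, 1311 and 4558 CPM in Het, and 1137, 1511 and 1570 CPM in WT thymus libraries (0.63 ± 0.32, adjusted p = 0.200, edgeR). Hist1h2bf was at 1098, 1423, 662 and 1611 CPM in KO, 604, 573, 675 and 3316 CPM in Het, and 462, 176 and 799 CPM in WT thymus libraries (1.32 ± 0.54, adjusted p = 0.0919). In both, KO replicate 3 overlapped WT and Het replicate 4 was above all KO libraries. For Hist1h2bf, WT replicate 2 was far below the other WT libraries, and the log2 fold change ran from 0.92 to 1.91 over the alternatives. Single libraries moved the number of members called, which was 20 without KO replicate 3, 3 without KO replicate 2, 1 without WT replicate 1, 4 without WT replicate 2 and 16 without Het replicate 4, which is in neither group compared.

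**Figure D3:**
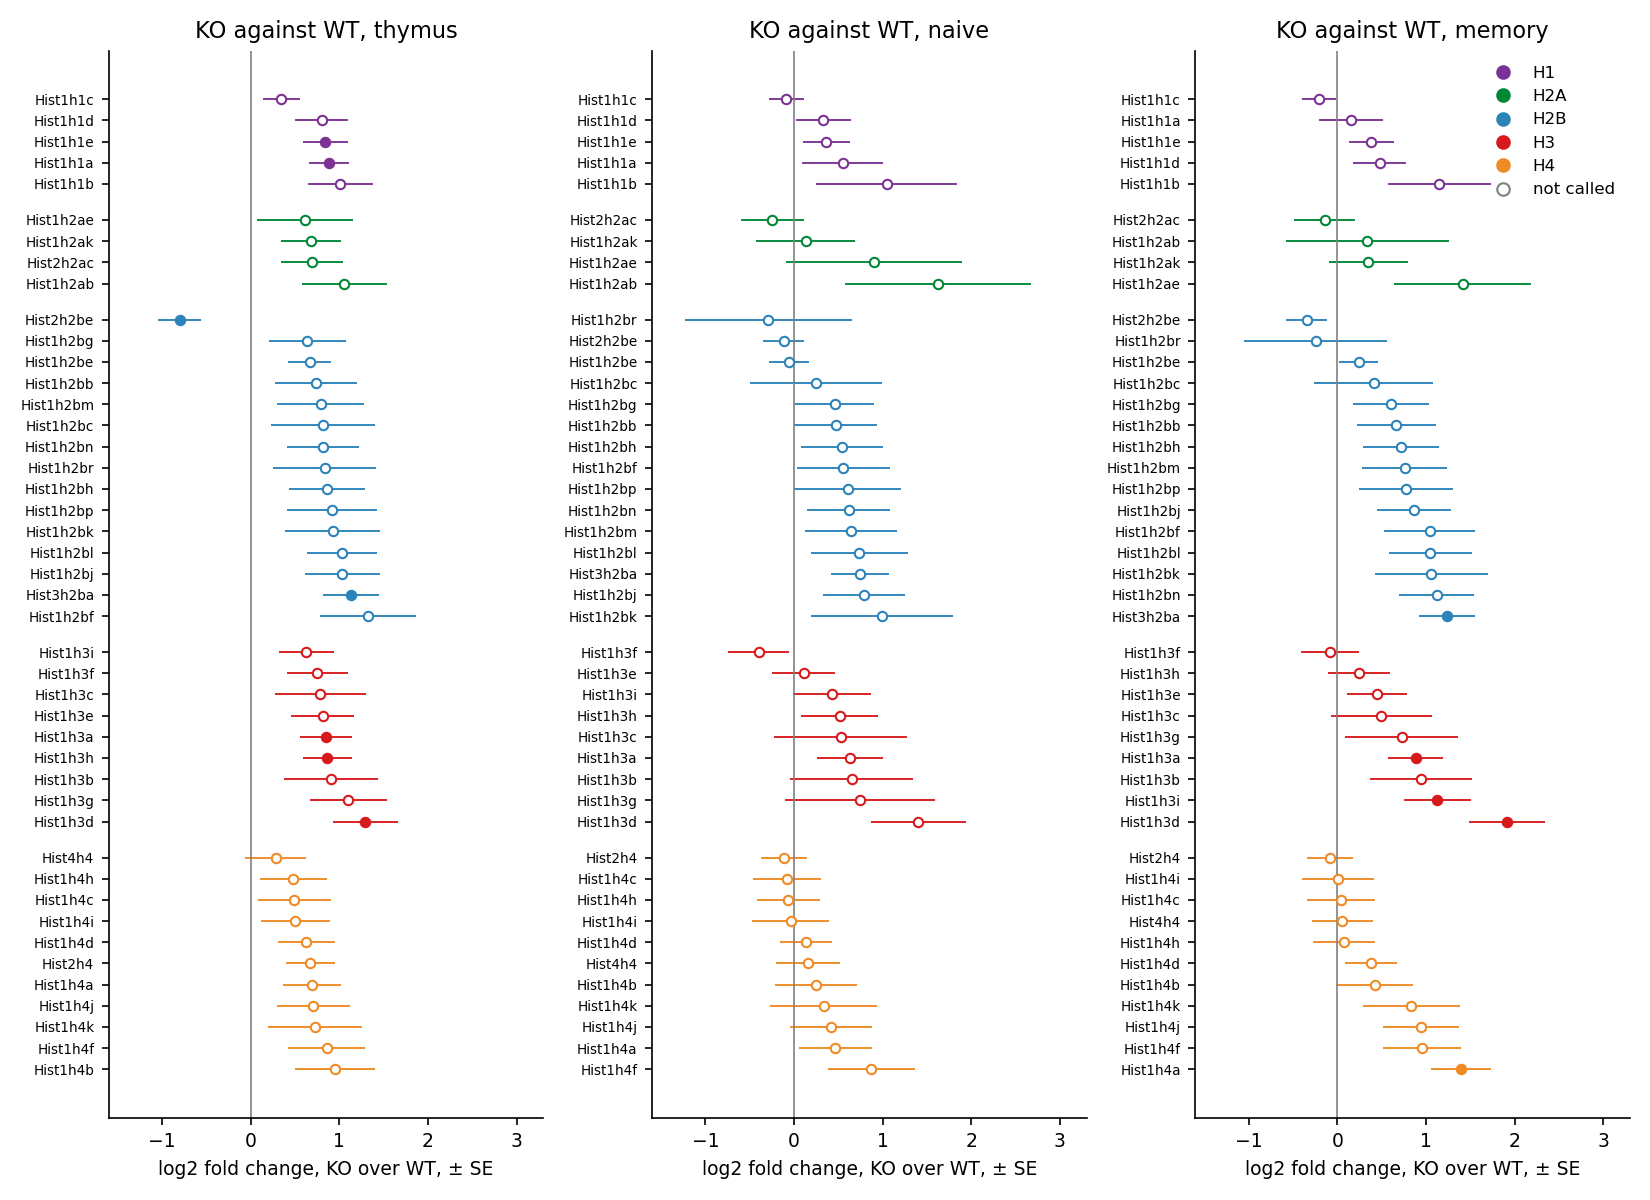
Log2 fold change of KO over WT for the 44 tested members in thymus, naive and memory cells, by histone class and ordered by size within each class, with bars of ± 1 SE and filled points for called members. Hist2h2be is the only called member below 0, in thymus at -0.80, and Hist1h3d reaches 1.91 in memory cells.

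Division genes were also higher in KO thymus. Of 26 tested S phase and mitosis genes, KO thymus had 19 higher than WT thymus and none lower, Mcm2 at 0.72 ± 0.07 and Mcm6 at 0.70 ± 0.08 (edgeR, adjusted p = 8.29e-10 and 3.33e-08). Their summed level was 3160 to 3864 CPM in KO, 2086 to 2707 CPM in Het and 1720 to 2283 CPM in WT thymus libraries. Slbp was higher (0.64 ± 0.11, adjusted p = 2.94e-05), and Npat was at 0.17 (adjusted p = 0.602). Of the histone mRNA machinery 4 of 20 were higher and none lower, Cdk2 (0.36 ± 0.11), Ccne2 (1.04 ± 0.33) and the cleavage factor Cstf2 (0.36 ± 0.08) being the others. Of 24 chaperones 11 were higher and none lower, among them Asf1b (1.01 ± 0.16, adjusted p = 5.5e-06) and Nasp (0.55 ± 0.09, adjusted p = 8.39e-06). Of 8 replacement histones 2 were higher, H1f0, the linker histone of resting cells (2.34 ± 0.26, adjusted p = 1.17e-07), and H2afz (0.69 ± 0.14, adjusted p = 0.000353). Genes of immature thymocytes, which divide more than CD8 single positive cells, summed to 21.5 to 34.7 CPM in KO, 13.8 to 30.5 CPM in Het and 12.6 to 20.9 CPM in WT thymus libraries over 7 genes, of which 1 of 4 tested, Rag1, was higher in KO (1.21 ± 0.40, adjusted p = 0.0369). The part of these differences in the histone levels was not tested. The non-coding RNAs Rn7sk, Rmrp and Rpph1 were not called in KO against WT thymus (-0.27, -0.29 and -0.11).

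In naive cells no member was called between KO and WT, against 18.2% of all genes, 11.1% higher and 7.11% lower (edgeR, with 2 members at an unadjusted p under 0.05, and 1 called by DESeq2). Without Het thymus replicate 4 edgeR called 2. More were called with only the libraries compared and with the replicate block, Hist1h3d and Hist3h2ba among them in both. Replicate numbers did not pair these libraries by the rule given under processing. In the fit of all libraries the median log2 fold change was 0.46, against 0.00 over all genes, and 34 of 44 were positive. Both members at an unadjusted p under 0.05 were among those higher in the thymus. Hist1h3d was at 5.99, 9.97, 9.46 and 11.6 CPM in KO, 2.65, 1.19, 2.84 and 3.31 CPM in Het, and 1.73, 1.66, 5.59 and 3.77 CPM in WT naive libraries (1.40 ± 0.54, adjusted p = 0.0724). Hist3h2ba was at 26.3, 23.9, 20.96 and 23.8 CPM in KO, 22.4, 14.6, 15.2 and 15 CPM in Het, and 17.1, 10.99, 12.97 and 16.1 CPM in WT naive libraries (0.75 ± 0.33, adjusted p = 0.121). In both genes the KO libraries lay above the WT libraries, and for Hist3h2ba Het replicate 1 reached into the KO range. For Hist2h2be the naive values were 25.7, 27.9, 18.1 and 27.8 CPM in KO libraries and 32.9, 22.7, 24.7 and 28.7 CPM in WT naive libraries, with overlapping groups. Stmn1 (1.41 ± 0.33, adjusted p = 0.00278) and Mcm2 (0.27 ± 0.07, adjusted p = 0.0057) were the 2 S phase and mitosis genes of 26 called higher in KO, with none lower. Npat was lower (-0.54 ± 0.18, adjusted p = 0.0288), the only call of 20 in the machinery list, and Slbp was at 0.19 (adjusted p = 0.259). The chaperone Nap1l1 was lower (-0.38 ± 0.09, adjusted p = 0.00107), and the replacement histones H1f0 (1.43 ± 0.22), H2afy (0.39 ± 0.08) and H2afz (0.49 ± 0.13) were higher.

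In memory cells KO libraries had 5 of 44 members higher than WT libraries and none lower, which is 11.4% of them, against 22.2% of all genes called in either direction, 12.8% higher and 9.32% lower (edgeR). The median log2 fold change was 0.55, against 0.01 over all genes, and 38 of 44 were positive. Hist1h3d was at 14.9, 17.3, 31.6 and 29.6 CPM in KO, 4.36, 2.72, 8.87 and 7.10 CPM in Het, and 2.097, 2.96, 9.66 and 10.5 CPM in WT memory libraries. Every KO library lay above every Het and WT library, and the log2 fold change over WT was 1.91 ± 0.43 (edgeR, adjusted p = 0.00132). In the fit of only the libraries compared its adjusted p was 0.0561.

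Hist1h4a (ENSMUSG00000060093, chr13:23760692-23761230, minus strand), the H4 gene without the GGTCCG motif, was at 31.3, 28.8, 36.8 and 42.1 CPM in KO, 7.91, 6.72, 14.9 and 16.6 CPM in Het, and 8.08, 10.99, 22.6 and 11.8 CPM in WT memory libraries. Its log2 fold change over WT was 1.40 ± 0.34 (edgeR, adjusted p = 0.00318). Hist3h2ba was at 27.3, 28.9, 27.7 and 30.7 CPM in KO, 15.7, 11.2, 9.49 and 17.8 CPM in Het, and 14.0, 13.9, 9.44 and 10.8 CPM in WT memory libraries (1.24 ± 0.31, adjusted p = 0.00434). In both genes the KO libraries lay above all others, and both were called in all 17 alternatives run. The H3 genes Hist1h3i (ENSMUSG00000101972, chr13:21782960-21783370, minus strand; 1.13 ± 0.38, adjusted p = 0.0315) and Hist1h3a (0.89 ± 0.31, adjusted p = 0.0408) completed the called members. Hist1h3i was at 8.03, 7.87, 11.7 and 14.2 CPM in KO, 2.67, 4.32, 7.27 and 9.29 CPM in Het, and 3.03, 3.88, 8.12 and 4.21 CPM in WT memory libraries. Hist1h3a was at 20.2, 18.6, 25.6 and 25.5 CPM in KO, 5.42, 6.56, 12.7 and 14.5 CPM in Het, and 8.16, 7.85, 17.8 and 15.2 CPM in WT memory libraries. KO and WT overlapped in Hist1h3i and not in Hist1h3a. Hist1h3i was called in 11 of 17 alternatives and Hist1h3a in 9 of 17 (adjusted p up to 0.122 and 0.155). Both calls were lost with no filter and without WT replicate 1, WT replicate 2, KO replicate 3 or KO replicate 4, that of Hist1h3i also without WT replicate 4, and that of Hist1h3a also with mean log centring, with only the libraries compared and without KO replicate 1. The number called was 3 without WT replicate 1 or 2 or KO replicate 3 or 4, and 8 without WT replicate 3. It was larger with the replicate block, as given in the closing section.

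**Figure D4:**
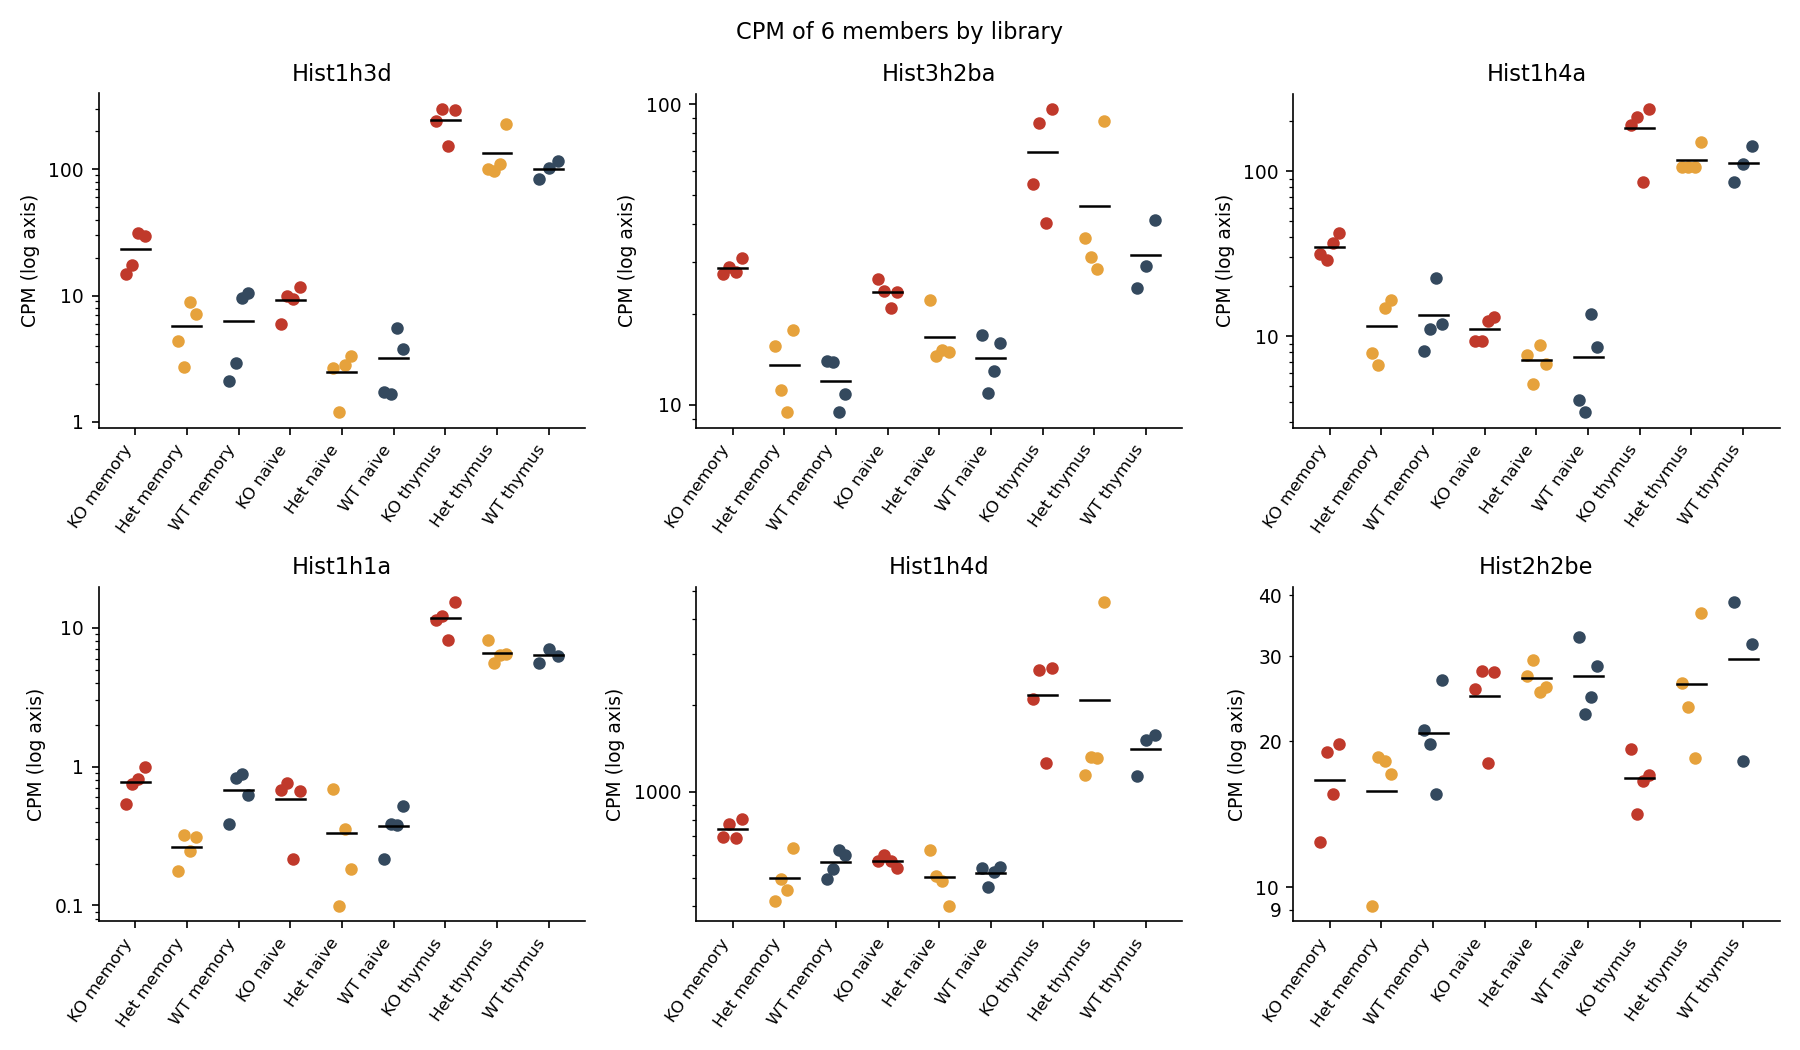
CPM of 6 members in each library (log axes), with 1 point per library and a line at each group mean. Hist1h3d, Hist3h2ba and Hist1h4a are higher in KO than in WT memory libraries without overlap, and the mean of Hist2h2be is lowest in KO among the thymus groups.

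The other 39 tested members were not called in memory cells. Hist1h4d was at 694, 772, 690.4 and 802 CPM in KO, 417, 498, 455 and 638 CPM in Het, and 498, 539, 628 and 604 CPM in WT memory libraries (0.38 ± 0.29, adjusted p = 0.424, edgeR). Its KO libraries lay above all others, and the test across libraries did not call it. Hist1h1a was at 0.535, 0.750, 0.820 and 0.987 CPM in KO, 0.178, 0.320, 0.246 and 0.313 CPM in Het, and 0.388, 0.831, 0.878 and 0.627 CPM in WT memory libraries, which overlapped (0.16 ± 0.36, adjusted p = 0.841). At this depth these are few counts. Hist2h2be was at 12.4, 19.0, 15.6 and 19.7 CPM in KO and 21.1, 19.8, 15.6 and 26.8 CPM in WT memory libraries (-0.34 ± 0.23, adjusted p = 0.342).

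KO memory cells had 11 of 26 S phase and mitosis genes higher than WT memory cells and none lower, among them Mcm2 (0.78 ± 0.07, adjusted p = 5.98e-12, edgeR) and Mcm5 (0.90 ± 0.12, adjusted p = 1.17e-07). Their summed level was 821 to 887 CPM in KO, 502 to 582 CPM in Het and 489 to 649 CPM in WT memory libraries, with no overlap between KO and the others, and the part of this in the histone levels was not tested. Of the machinery, Slbp (0.55 ± 0.11, adjusted p = 8.6e-05) and Cdk2 (0.60 ± 0.11, adjusted p = 4.4e-05) were higher, and Npat (-0.49 ± 0.18, adjusted p = 0.0394) and the cap binding protein gene Ncbp1 (-0.17 ± 0.06, adjusted p = 0.0392) lower. Of 24 chaperones Chaf1a (1.48 ± 0.33), Nasp (0.34 ± 0.08) and Ssrp1 (0.24 ± 0.07) were higher and none lower, and of 8 replacement histones H1f0 was higher (1.41 ± 0.21, adjusted p = 7.27e-06).

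**Figure D5:**
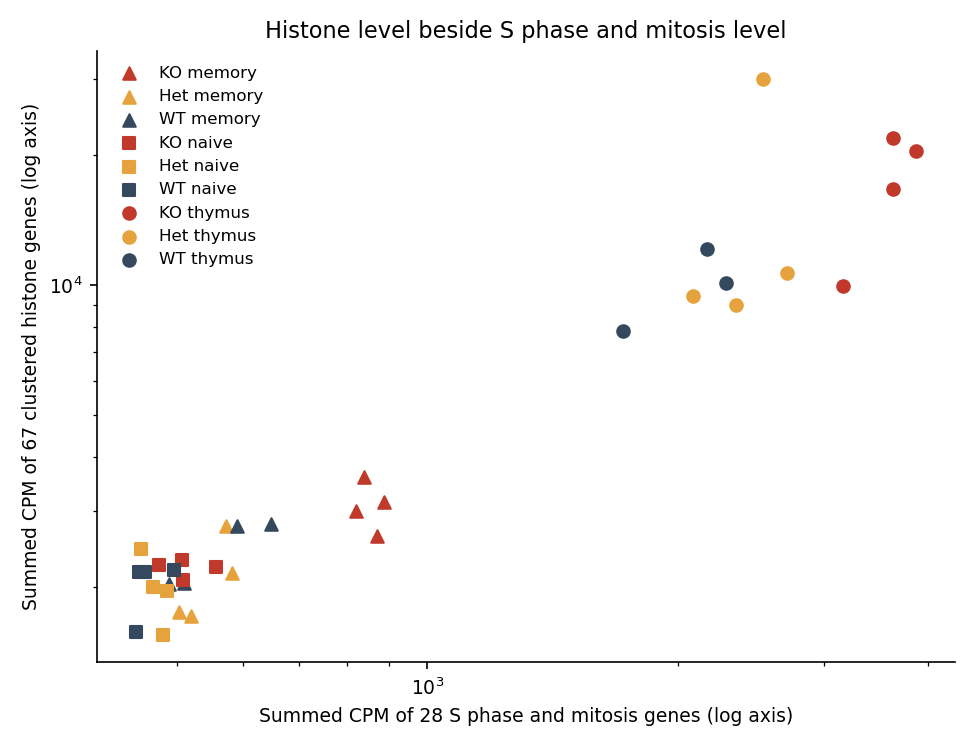
Summed CPM of the 67 clustered histone genes against the summed CPM of 28 S phase and mitosis genes in each library (both log axes), with colour for genotype and shape for subset. The thymus libraries are high on both axes, the KO memory libraries sit right of the other memory libraries at 821 to 887 CPM, and Het thymus replicate 4 sits above the others at 30101 CPM.

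Few members were called between memory and naive cells in the fit of all libraries. This comparison uses the same naive libraries as that with the thymus. More were called in each genotype with the replicate block, and in KO and Het cells with only the libraries compared. Those counts are given in the closing section. In KO cells 3 of 44 members were higher and none lower, against 17.3% of all genes called, 8.69% higher and 8.61% lower, with a median log2 fold change of 0.74 (edgeR). They were Hist1h4a (1.64 ± 0.35, adjusted p = 0.00103), Hist1h3a (1.03 ± 0.32, adjusted p = 0.0219) and Hist1h3d (1.32 ± 0.41, adjusted p = 0.0231). The number was 1 without KO memory replicate 3 or 4, and 6 without Het thymus replicate 4. Hist1h4a was at 31.3, 28.8, 36.8 and 42.1 CPM in KO memory, against 9.37, 9.31, 12.4 and 13.1 CPM in KO naive libraries, without overlap. In Het cells 1 member, Hist2h2be, was lower (-0.80 ± 0.24, adjusted p = 0.0176) and none higher, against 16.9% of all genes called, 8.31% higher and 8.57% lower, with a median of 0.24; without Het memory replicate 1 none was called. In WT cells none was called, against 15.1% of all genes, 7.68% higher and 7.38% lower, with a median of 0.38 (edgeR, 1 at an unadjusted p under 0.05 and 0 by DESeq2), and 1 was called without WT naive replicate 3. Replicate numbers paired the WT libraries by the rule given under processing, and with the replicate number as a block 18 members were higher and 1 lower there. In memory cells of KO, Het and WT, replicates 3 and 4 both lay above replicates 1 and 2 in 25, 33 and 32 of 44 members. In naive cells this held for 18, 5 and 22 members. The reverse held for 1, 0 and 1 in memory and for 5, 14 and 0 in naive cells. Of 26 S phase and mitosis genes 15 were higher in memory than in naive KO cells, 5 in Het and 5 in WT cells, with none lower in any.

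No member was called in Het against WT in any subset, against 0% of all genes in thymus and naive and 0.00971% in memory cells (edgeR, with 3, 0 and 1 members at an unadjusted p under 0.05 in thymus, naive and memory cells, and 0 called by DESeq2 in each). Without replicate 4 the summed level in Het thymus was 9688 ± 891 CPM (SD, n = 3), against 10029 ± 2165 CPM in WT thymus (SD, n = 3). In KO against Het thymus 6 members were higher and 1, Hist2h2be (-0.66), lower, against 19.1% of all genes called, 11.9% higher and 7.28% lower. Those with the lowest adjusted p were Hist1h1a (0.83 ± 0.20, adjusted p = 0.00244), Hist1h3a (0.84 ± 0.26, adjusted p = 0.0244), Hist1h2ak (0.96 ± 0.31, adjusted p = 0.0295) and Hist1h1e (0.68 ± 0.23, adjusted p = 0.0367). Hist1h2ak was at 14.6, 21.3, 7.96 and 27.7 CPM in KO and 3.77, 10.2, 13.0 and 9.81 CPM in Het thymus libraries, which overlapped. Leaving out any 1 of these 8 libraries moved the number called, to 16 without Het replicate 4, 13 without KO replicate 3, 4 without KO replicate 1 or Het replicate 3, 3 without Het replicate 2, and 1 without KO replicate 2, KO replicate 4 or Het replicate 1.

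In KO against Het naive cells 2 members were higher and none lower, against 16.9% of all genes called, 10.5% higher and 6.5% lower. They were Hist1h3d (1.88 ± 0.55, adjusted p = 0.0162, edgeR) and Hist1h2ab. Hist1h2ab had 13 counts over the KO and 0 over the Het naive libraries, at least 4.0-fold higher against a floor of 3 counts over the group. The replicate numbers paired these libraries by the same rule, and with the block 18 members were higher. Without Het replicate 2 none was called, and without KO replicate 1 or Het replicate 1, 3 or 4 there was 1. In KO against Het memory cells 6 members were higher and none lower, against 20.2% of all genes called, 11.6% higher and 8.59% lower. The lowest adjusted p were those of Hist1h3d (1.98 ± 0.45, adjusted p = 0.00154), Hist1h4a (1.57 ± 0.35, adjusted p = 0.00162), Hist1h3a (1.19 ± 0.33, adjusted p = 0.00906) and Hist1h2bn (1.55 ± 0.45, adjusted p = 0.0126). The number was 3 without Het replicate 1, 9 without Het replicate 4 and 10 without Het thymus replicate 4. It was larger with the replicate block, as given in the closing section. These comparisons use the same KO libraries as those against WT.

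The difference between KO and WT was itself compared between subsets. No member was called in the KO effect of naive minus thymus cells, against 6.34% of all genes, 3.01% higher and 3.33% lower (edgeR, 3 at an unadjusted p under 0.05, 0 by DESeq2), and the lowest adjusted p was that of Hist1h3f (-1.15 ± 0.49, adjusted p = 0.184). Without Het thymus replicate 4, 2 members were called there, both lower. No member was called in the KO effect of memory minus naive cells, against 1.79% of all genes (0 at an unadjusted p under 0.05 and 0 by DESeq2). A KO difference called in one subset and not in another is therefore not shown to differ between them.

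Genes of other cell types were measured beside these results in KO against WT libraries. Of the CD8 T cell list, KO cells had 4 of 10 lower in memory, 1 in the naive subset and 2 in thymus, and none higher, with Cd247 among them each time (-0.43 ± 0.09, -0.68 ± 0.09 and -0.61 ± 0.09). Of 9 tested B cell genes 1, Cd79b, was higher in KO thymus (1.26 ± 0.36, adjusted p = 0.0111, edgeR) and none was called in spleen cells, where the summed level of the list ran up to 259.8 CPM in 1 KO naive library. None of the erythroid genes (5 tested) or myeloid genes (1 tested) was called in any subset, and of the platelet list Gp1ba, the 1 tested, was lower in KO thymus (-0.53 ± 0.19, adjusted p = 0.0374). Of the immature thymocyte list 1 of 4 tested genes was higher in naive (Arpp21, 1.37 ± 0.47) and 1 in memory KO cells (Dntt, 3.88 ± 1.24, with a summed list level of at most 0.375 CPM). The part of these genes in the histone levels was not tested.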

How the data were processed

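RNA of sorted CD8 T cells was sequenced in 35 libraries. Per the labels' protocols, RNA was extracted with Trizol and strand-specific libraries were made with a TruSeq mRNA kit. The submitters' processing notes name TopHat2 2.1.0 and HTSeq 0.9.1 as tools, TopHat without a version, and GRCm38 and mm10 as builds. The annotation release and strand setting of the counting are not given in the sources used here. The authors deposited raw counts, whole reads per Ensembl gene, for 52636 genes. Symbols were matched through GENCODE M21, which named 52403 of them. The members and gene lists were chosen with earlier results of these data known.

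In R 4.3.3, edgeR 4.0.16 fitted all libraries (TMM factors 0.927 to 1.07, filterByExpr, 10296 genes, robust quasi-likelihood with 26 residual degrees of freedom). Benjamini-Hochberg adjustment of the two-sided p-values covered every gene tested, with calls made under 0.05. SE was obtained by dividing the absolute log2 fold change by the root of the F statistic. CPM used TMM scaling and is given ± SD. Counts under about 10 per library are imprecise. The self-test on simulated KO against WT naive libraries (10007 genes) recovered 77% of genes changed by log2 1 and 93% by log2 2, with 15 false calls. Of 51 library pairs within groups, none looked alike (lowest chi-square per gene 4.07).

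Values per library are given for the 2 tested members of each class with the highest mean CPM over all libraries and for up to 6 members per subset called in KO against WT, and other comparisons name up to 4 members by adjusted p. Hist1h2ab was named because its Het count was 0, and Hist1h4h and Hist1h2bm by level per kilobase. Replicate numbers recur across groups. They were taken to pair libraries where every correlation of deviations from the group means was over 0.1, which held for KO against Het naive (0.144 to 0.262) and memory against naive WT cells (0.206 to 0.310), so this pairing rests on correlation alone, not on a label. Alternatives were RLE scaling, centring on the mean log level, no filter, a stricter filter (CPM of 1 in 4 libraries), DESeq2 1.42.0, only the libraries compared, the replicate block, sex (24 male and 11 female libraries by Xist and Y-linked genes) and each replicate left out. Leaving out Het thymus replicate 4 elsewhere was chosen after seeing the data. By Xist and Y-linked genes, WT replicate 3 was male in thymus and female in naive and memory cells. That number therefore does not mark 1 animal across these subsets, though the replicate block was also run on comparisons with the thymus.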

Additional observations from a re-analysis of the deposited data

Results flagged for a closer look

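In 200 groups of 4 library values (sums and named members), 21 had 1 library far from the rest, where chance gives about 1 in 20. Of these, 14 were Het thymus replicate 4, which was above the others of its group. Its summed level was 30101 CPM over all members, 686.48 CPM for H1, 14466 for H2B, 2747.4 for H3 and 12138 for H4. Among single members it had 372.99 CPM of Hist1h1d, 3316 of Hist1h2bf, 769.37 of Hist1h3b and 564.61 of Hist1h3e. It also had 4558.3 CPM of Hist1h4d, 2053.8 of Hist1h4c, 88.143 of Hist3h2ba, 227.54 of Hist1h3d and 149.48 of Hist1h4a. Hist1h1a, Hist2h2ac and Hist1h2ak were not among them, at 0.968, 0.979 and 1.09 times the mean of the other Het thymus libraries.

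The summed level of WT naive replicate 2 was low, at 1572 CPM, against 2168 to 2185 CPM in the others. Hist1h1c was high in KO naive replicate 2 (109.85 CPM), Hist1h3h in KO memory replicate 2 (5.2484 CPM), Hist3h2ba in Het naive replicate 1 (22.4 CPM) and Hist1h3i in WT naive replicate 3 (6.6268 CPM). Hist2h2be was low in Het memory replicate 1 (9.1589 CPM) and Hist1h2ak in WT naive replicate 4 (0.83738 CPM).

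Hist1h2bq, an H2B gene that was not tested, had 2510 of its 2535 counts in KO thymus replicate 4 and 0 to 8 in every other library. Of its 65-base windows, 96.6% occur in another gene.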

How the results depend on the processing

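Naive against thymus kept its count of called members within 1.5 times under every alternative run, in all genotypes. The summed level of a group moved by less than its SD, but in Het thymus that SD is set by replicate 4: without it the mean was 9688 CPM, against 14791 CPM with it. Counts between genotypes moved. With no filter, the number called was 3 in KO against Het thymus, 1 in KO against WT naive, 3 in KO against WT memory and 2 in memory against naive WT. DESeq2 called 1 in KO against WT naive and 2 in memory against naive Het. With only the libraries compared it was 2 in KO against Het thymus, 3 in KO against WT naive, 17 in KO against Het naive, and 16 and 2 in memory against naive KO and Het. With the replicate block it was 4, 15 and 17 in KO against WT thymus, naive and memory, 4, 18 and 29 in KO against Het, and 26, 5 and 19 in memory against naive KO, Het and WT.

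Leaving out 1 library of a comparison at a time gave 1 to 20 in KO against WT thymus, 0 in naive and 3 to 8 in memory, 1 to 16, 0 to 2 and 3 to 9 in KO against Het thymus, naive and memory, and 1 to 4, 0 to 1 and 0 to 1 in memory against naive KO, Het and WT. Without Het thymus replicate 4, chosen after seeing the data where it was not compared, it was 16 in KO against WT thymus, 2 in naive, 10 in KO against Het memory, 6 in memory against naive KO and 2 in the KO effect of naive minus thymus. The causes were not tested.

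Of the named members' KO against WT values under the alternatives, 858 kept direction and call, most of them uncalled throughout. The 45 that lost a call came from the 7 members called in thymus and the 5 called in memory cells. A further 32 gained a call. Another 11, all uncalled, changed sign. In naive cells these were Hist1h3e (-0.013 by mean log centring, and -0.050 to 0.226 with 1 library left out), Hist1h4c (-0.237 to 0.011), Hist1h2ak (-0.040 to 0.238), Hist2h2ac (-0.452 to 0.017) and Hist2h2be (-0.202 to 0.0065). In memory cells they were Hist1h4c (-0.073 by mean log centring, -0.068 with sex, and -0.051 to 0.121 with 1 library left out), Hist1h1a (-0.074 to 0.329) and Hist2h2ac (-0.294 to 0.024). Low counts limit H2A genes and Hist1h1a in spleen.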
